A study of Mus musculus with 3 samples.

Results

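Among the immune cells of the islets of NOD mice, 485 T cells had no Foxp3 transcript and carried transcripts of Cd4, Izumo1r and Nt5e together. Izumo1r encodes folate receptor 4 and Nt5e encodes the ecto-enzyme CD73, and the pair is used to stain anergic CD4 T cells. The members were chosen by counts of the unique molecular identifiers (UMIs, each standing for 1 captured transcript) of 10 genes in single cells. A cell had to have at least 1000 UMIs, under 10% of them from mitochondrial genes, at least 1 UMI over Cd3d, Cd3e and Cd3g, at least 1 of Cd4, none of Cd8a, Cd8b1 and Foxp3, at most 1 of the B cell gene Cd79a, and at least 1 each of Izumo1r and Nt5e. They are called double-positive cells here and came to 125, 144 and 216 cells in replicates 1, 2 and 3, of 5738 CD4 T cells without Foxp3, of 26142 cells past the depth and mitochondrial limits and of 26947 cells listed. The cells were compared with 3650 CD4 T cells without Foxp3 that had neither transcript (double-negative), with 1077 that had Izumo1r only, with 526 that had Nt5e only and with 693 Foxp3-positive CD4 T cells of the same libraries.

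Anergy is a state in which a CD4 T cell that met its antigen without enough costimulation survives but responds poorly when it meets that antigen again. Folate receptor 4 and CD73 are high on such cells, and CD73 makes adenosine from AMP, which dampens T cells through adenosine receptors. Both molecules are also found on regulatory T cells and on follicular helper T cells, so the pair alone does not name a state. The name "anergic-like" was therefore checked against other genes linked to anergy. Of these Nrp1 rose, Cblb did not pass the test, and Egr2 and Egr3 were too low to be tested, so the cells are called by the transcripts that chose them.

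The libraries hold live CD45+ cells sorted from islets of female wild-type NOD mice, a strain that develops autoimmune diabetes spontaneously, at 15 to 16 weeks of age. Each of the 3 libraries pooled islets of 2 to 3 mice, and there was 1 condition, so that every comparison is between cell populations inside the same libraries. The libraries hold 5844, 9537 and 11566 listed cells and 33851381, 74775394 and 80806452 UMIs. Cell barcodes shared between libraries numbered 12 for replicates 1 and 2, 18 for replicates 1 and 3 and 29 for replicates 2 and 3, and 0 barcodes of double-positive cells were among them. The libraries come from 2 independent experiments, and which mice were in which is not stated, so no batch was tested. The replicates are separate pools of mice. Differences that all populations of a library share are set aside in the gene tests. Their p-values therefore measure how differences between populations vary over these 3 libraries. The spread of a gene was estimated from the sums of all 5 populations.

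Double-positive cells made up 14.4% of the CD4 T cells without Foxp3 in replicate 1 (exact 95% binomial interval 12.2 to 16.95%), 7.19% in replicate 2 (6.10 to 8.41%) and 7.53% in replicate 3 (6.59 to 8.56%), with a mean of 9.72% ± 4.09 (SD, n = 3). Replicate 1 stood above the other two by more than the counting error, which is all that these intervals cover. Nt5e UMIs were found in 31.6%, 30.1% and 31.4% of the cells with Izumo1r and in 15.5%, 11.9% and 12.4% of the cells without it. After each cell was thinned to 2000 UMIs, these shares were 16.2%, 16.8% and 15.0% against 11.1%, 6.91% and 7.67%. Izumo1r lies at chr9:14885814-14903949 on the minus strand and Nt5e at chr9:88327197-88372092 on the plus strand (mm10, GENCODE M21). The level of Izumo1r, in CPM (UMIs of the gene summed over the cells and scaled to the total of all UMIs in that sum), was 537, 436 and 404 in the double-positive sums of replicates 1, 2 and 3, 564, 389 and 425 in the Izumo1r-only sums and 454, 357 and 337 in the Foxp3-positive sums. The level of Nt5e was 337, 385 and 351 CPM in the double-positive, 405, 372 and 363 in the Nt5e-only and 117, 143 and 139 in the Foxp3-positive sums, and that of Cd4 was 462, 536 and 558 CPM in the double-positive and 543, 508 and 529 in the double-negative sums. Each range overlaps the next for Izumo1r, while the Foxp3-positive cells had the lowest Nt5e of the 3 populations. Unlike the double-positive and Nt5e-only cells, the Foxp3-positive cells did not need an Nt5e UMI, so the rule itself favours this order. They did not need an Izumo1r UMI either. These values come from the genes that chose the cells and are a description.

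The double-positive cells held a median of 2 Izumo1r UMIs and 1 Nt5e UMI, with highest counts of 23 and 12. A single UMI of each was found in 119 cells (24.5%), and 2 or more of both in 131 (27.01%). At the edge of the rule, 35, 33 and 51 cells of replicates 1, 2 and 3 had exactly 1 UMI of each gene, and 185, 299 and 440 cells just outside it had 1 UMI of one gene and none of the other. Ikzf2, the gene of the transcription factor Helios, was detected in 51.4%, 45.5% and 47.1% of the cells just inside and in 44.9%, 36.5% and 32.0% of those just outside. These shares were not thinned, and the cells just inside were deeper, with median depths of 4784, 6562 and 6442 UMIs against 3843, 6446 and 5519.5. Without thinning, Izumo1r UMIs were found in a mean of 0.382% of B cells and Nt5e UMIs in 3.14%, at median depths of 4155, 6683.5 and 5756 UMIs. In CD8 T cells the shares were 9.01% and 9.71%.

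A rule that needs UMIs of several genes takes deeper cells. The median depth was 5592, 7804 and 7489 UMIs in the double-positive cells of replicates 1, 2 and 3 against 3702.5, 5719.5 and 4999 in the double-negative cells. In cells with 2500 to under 5000 UMIs, 10.4%, 2.94% and 2.27% of the CD4 T cells without Foxp3 were double-positive, and in cells with 10000 or more UMIs 28.2%, 18.7% and 22.7% were. When every cell was thinned to 2000 UMIs before the rule was applied, the shares were 4.80%, 2.31% and 1.91%, again with replicate 1 highest. A doublet caller set to mark 7.6% of each library marked 4.80%, 4.17% and 6.94% of the double-positive cells and 1.51%, 2.98% and 4.08% of the double-negative cells. These cells were kept, and the counts without them are given with the alternatives at the end.

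**Figure D1:**
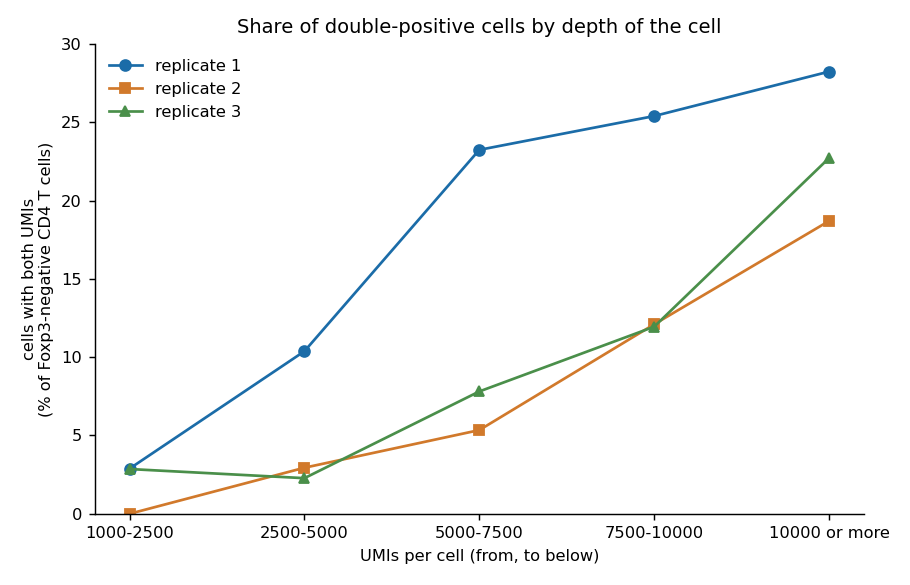
Share of double-positive cells among CD4 T cells without Foxp3 (y axis, percent) by the number of UMIs in the cell (x axis, 5 bins), 1 line per library. In replicate 3 the share is 2.27% in the bin from 2500 UMIs and 22.7% in the bin from 10000 UMIs, and replicate 1 lies above the other libraries in each bin from 2500 UMIs up.

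The first question was how the double-positive cells differ from CD4 T cells that lack both transcripts. Of the genes listed for each group, 5 of 10 tested inhibitory receptors, 4 of 11 costimulatory genes, 9 of 16 follicular helper genes and 11 of 15 regulatory T cell genes were higher in the double-positive cells. Of the naive and circulating genes 11 of 14 were lower. Of the interferon-induced genes 8 of 14 were lower, while the summed level of that list was higher in each library. Ccl5, Gzmk, Prf1 and Eomes, which cytotoxic cells express, were lower, and Gzmb, a granzyme gene, did not pass (log2 fold change -0.48, adjusted p = 0.517). UMIs were summed per library and population, expressed as CPM, and tested with edgeR with the library as a block (15 sums, 9275 genes, Benjamini-Hochberg adjustment). In all, 1469 genes passed an adjusted p of 0.05, 852 higher and 617 lower in the double-positive cells, or 15.8% of the genes tested (9.19% higher and 6.65% lower). The counts of genes of each list below are to be read against these shares where they come from this fit. Counts from another fit are to be read against the calls over all genes of that fit. A value given as ± is the standard error of the fold change on the log2 scale, and the levels follow the order of replicates 1, 2 and 3. A higher summed level can come from more cells with the gene or from more RNA per cell, and these cannot be told apart in the sums. The count fell to 719 of 8916 genes (351 higher, 368 lower) when each double-positive cell was paired with a double-negative cell of like depth. Without replicate 2 it was 673 of 9310 (375 higher, 298 lower), and without replicate 3 it was 403 of 8867 (207 higher, 196 lower). Pairing on depth also moved the markers of other cell types, whose levels are given further on. The median log2 fold changes of the B cell, myeloid and natural killer, NKT and gamma-delta T cell lists were -2.69, -2.55 and -2.36 in the paired cells, against -1.20, -0.93 and -1.10 in all cells. The part of these markers in the values matched on depth was not tested.

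**Figure D2:**
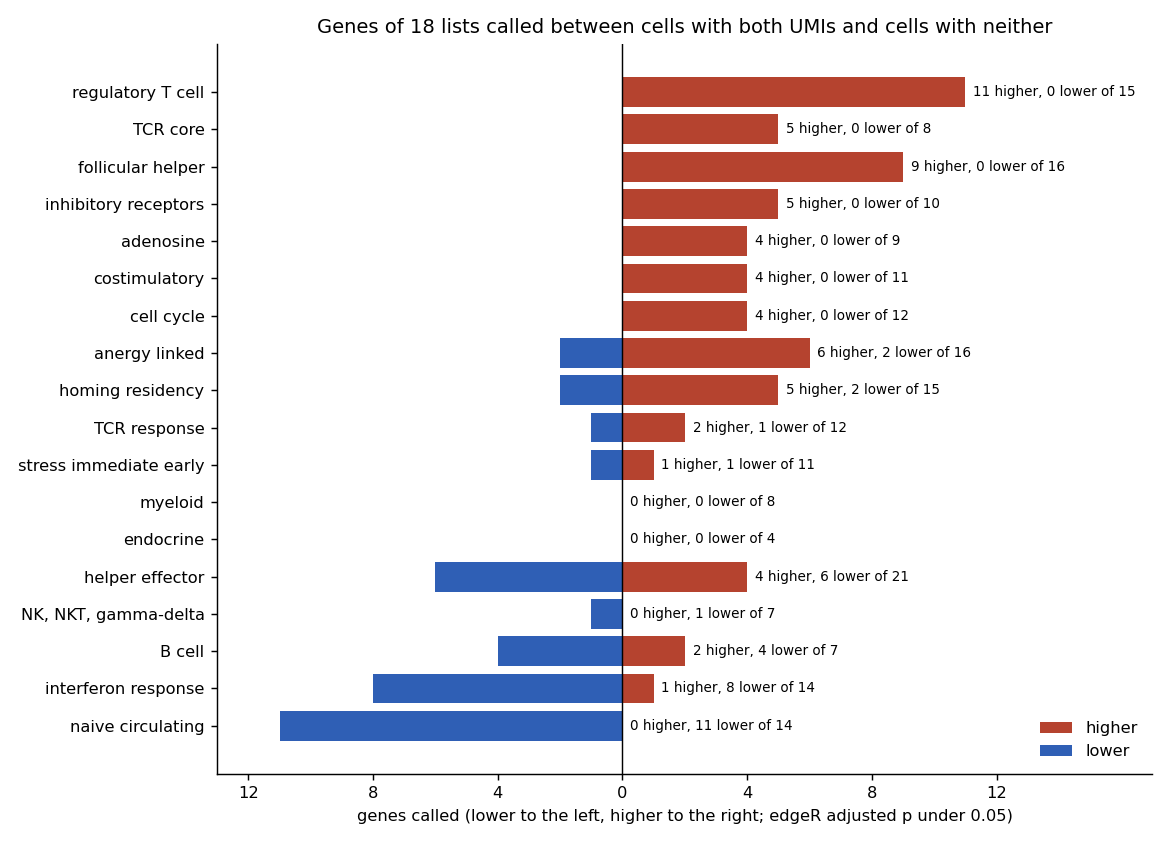
Number of genes called higher (red, to the right) or lower (blue, to the left) in double-positive than in double-negative cells (x axis, genes with an edgeR adjusted p under 0.05) for each of 18 gene lists (y axis), with the number tested. The regulatory T cell list has 11 of 15 genes higher and the naive and circulating list 11 of 14 lower, against 9.19% and 6.65% of all genes.

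Of the inhibitory receptors, 5 of the 10 tested rose and none fell, with a median log2 fold change of 0.55 beside -0.01 over all genes. Matched on depth, 4 were higher and 2 lower, and without replicate 2 or 3 it was 3 higher and none lower. Among cells with a Pdcd1 UMI, a set described further on, 2 of 9 were lower (Havcr2 and Entpd1) and 0 were higher by edgeR, where 3 were higher at an unadjusted p under 0.05, with a median of -0.01. Cd200, whose product restrains myeloid cells through its receptor, stood at 458, 469 and 499 CPM in the double-positive sums and at 244, 155 and 133 CPM in the double-negative sums (log2 fold change 1.52 ± 0.14, adjusted p = 4.53e-07). The lowest double-positive library lay above the highest double-negative one. Ctla4, the receptor that competes with CD28 for its ligands, stood at 743, 612 and 561 CPM against 373, 284 and 240.5 CPM (log2 fold change 1.12 ± 0.08, adjusted p = 1.32e-08). Btla, a receptor for HVEM, stood at 90.0, 46.4 and 42.7 CPM against 62.6, 12.5 and 13.6 CPM (log2 fold change 1.33 ± 0.22, adjusted p = 2.43e-04). Ctla4 did not overlap between the populations, while for Btla the level of double-negative cells in replicate 1 exceeded 2 of the double-positive libraries, although the double-positive sum was the higher one inside each library.

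Pdcd1, the gene of PD-1, rose by 0.58 ± 0.14 on the log2 scale (adjusted p = 0.00491), with 221, 404 and 554 CPM against 229, 286 and 265 CPM. In replicate 1 the 2 populations stood at nearly the same level, and replicate 3 was farthest apart. Lag3, a receptor for MHC class II, stood at 157, 160.0 and 156 CPM against 151, 145 and 66.0 CPM (log2 fold change 0.54 ± 0.18, adjusted p = 0.0445), with nearly all of the difference in replicate 3. Tigit had 45.8, 47.6 and 26.9 CPM against 43.4, 28.6 and 16.7 CPM and did not pass (log2 fold change 0.55 ± 0.20, adjusted p = 0.0736). Cd96, Vsir and Havcr2 did not pass either, with log2 fold changes of 0.21, -0.23 and -0.95. Matched on depth, Havcr2, the gene of TIM-3, was lower (log2 fold change -2.15, adjusted p = 9.69e-04) and Lag3 did not pass (log2 fold change 0.16, adjusted p = 0.785). Cd200, Ctla4 and Btla passed without each library in turn. Pdcd1 did not pass in each of these fits (adjusted p = 0.0587 without replicate 2 and 0.435 without replicate 3), nor did Lag3 (adjusted p = 0.0504 without replicate 2 and 0.756 without replicate 3), and Tigit passed without replicate 1 (adjusted p = 0.0226) and without doublets. Matched on depth, Cd200 stood at 0.82 (adjusted p = 7.02e-04), Btla at 0.71 (adjusted p = 0.0496), Ctla4 at 1.17 (adjusted p = 2.11e-07) and Pdcd1 at 0.41 (adjusted p = 0.0374) on the log2 scale.

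Of the 11 costimulatory genes 4 rose, and 2 did without replicate 2 or without replicate 3. Tnfrsf4, which encodes OX40, had 1334, 1926 and 1914 CPM against 922, 661 and 696 CPM (log2 fold change 1.19 ± 0.13, adjusted p = 2.22e-06), without overlap. After thinning to 2000 UMIs, 77.2%, 78.5% and 78.6% of the double-positive cells and 47.1%, 29.2% and 32.0% of the double-negative cells had a Tnfrsf4 UMI. Icos, the inducible costimulator, stood at 1202, 1273 and 1362 CPM against 993, 645 and 681 CPM (log2 fold change 0.76 ± 0.11, adjusted p = 6.56e-05). Cd82, a tetraspanin, and Tnfrsf18, which encodes GITR, rose by 0.49 ± 0.10 and 0.31 ± 0.09 on the log2 scale. Shares were tested by an exact two-sided sign-flip permutation over 3 pairs, whose smallest possible p is 0.25, and Tnfrsf4 and Icos both gave p = 0.25. Tnfrsf4 and Icos passed without each library in turn, while Cd82 (adjusted p = 0.0950 without replicate 2 and 0.129 without replicate 3) and Tnfrsf18 (adjusted p = 0.411 without replicate 2 and 0.238 without replicate 3) did not.

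The genes linked to anergy moved in both directions. Of 18 listed genes 16 were tested, 6 rose and 2 fell, with a median log2 fold change of 0.21. Matched on depth, as without replicate 2, 4 rose and none fell, and without replicate 3 it was 2 and none. Nrp1, the gene of neuropilin 1, stood at 103, 58.6 and 67.1 CPM against 55.9, 19.9 and 17.7 CPM (log2 fold change 1.501 ± 0.19, adjusted p = 1.04e-05) and was higher in the double-positive cells of each library, without overlap. Rnf128, the gene of the ubiquitin ligase GRAIL, rose at a low level, with 14.7, 9.77 and 11.8 CPM against 6.67, 5.96 and 4.94 CPM (log2 fold change 1.07 ± 0.34, adjusted p = 0.0379). Cd5, a negative regulator of T cell receptor signals, had 288, 253 and 361 CPM against 239, 143 and 166 CPM (log2 fold change 0.79 ± 0.14, adjusted p = 3.76e-04). Dgkz, which removes diacylglycerol, rose by 0.57 ± 0.12 and Nfatc1 by 0.52 ± 0.11 on the log2 scale. Nrp1 passed without each library in turn. Cd5 and Dgkz did not pass without replicate 3 (adjusted p = 0.0859 and 0.137), and neither Nfatc1 (adjusted p = 0.0640 without replicate 2 and 0.154 without replicate 3) nor Rnf128 (adjusted p = 0.0957 without replicate 1, 0.146 without replicate 2 and 0.373 without replicate 3) passed in all of these fits.

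Other genes linked to anergy fell or did not pass. Cblb, a ubiquitin ligase that holds back T cell activation, stood at 519, 619 and 713 CPM in double-positive and at 562, 659 and 612 CPM in double-negative cells (log2 fold change 0.02 ± 0.09, adjusted p = 0.907), and the ranges overlapped. Itch, another such ligase, fell by 0.40 ± 0.11 and Ikzf1 by 0.52 ± 0.10 on the log2 scale, and neither passed without replicate 2 (adjusted p = 0.122 and 0.0519) or replicate 3 (adjusted p = 0.147 and 0.0618). Dgka and Ptpn22 gave log2 fold changes of -0.16 and 0.20 and did not pass. Egr2 and Egr3, transcription factors of the anergy programme, were too low to be tested, with 11 and 8 UMIs in all double-positive cells against 77 and 53 in the double-negative cells. Without the filter on low counts their log2 fold changes were -0.64 ± 0.51 and -0.59 ± 0.61, with adjusted p = 0.673 and 0.813. Against the Izumo1r-only and the Nt5e-only cells 0 of 16 tested anergy genes passed by edgeR. At an unadjusted p under 0.05, 1 was higher and 1 lower against the former, and 1 higher and 0 lower against the latter. The mean summed level of the list was 2782 CPM in double-positive and 2466 CPM in double-negative cells. It was 2823 CPM in Izumo1r-only and 2897 CPM in Nt5e-only cells.

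Of the genes that respond to a recent signal from the T cell receptor 2 of 12 were higher and 1 lower, with a median log2 fold change of -0.21. Tnfrsf9, which encodes 4-1BB, had 187, 327 and 333 CPM against 170.2, 129 and 116 CPM (log2 fold change 1.09 ± 0.23, adjusted p = 0.00180), and did not pass without replicate 3 (adjusted p = 0.147). Irf4, a transcription factor induced by receptor signals, rose by 0.67 ± 0.23 (adjusted p = 0.0478), which was lost without any 1 library (adjusted p = 0.102 without replicate 1, 0.185 without replicate 2 and 0.0931 without replicate 3), and Tagap fell by 1.41 ± 0.27 on the log2 scale. Nr4a1 stood at 94.9, 46.4 and 49.8 CPM against 113, 76.2 and 62.8 CPM (log2 fold change -0.41 ± 0.18, adjusted p = 0.133), lower in each library but not past the threshold. Egr1 had a log2 fold change of -0.29 ± 0.25 and did not pass. Of the core genes of the T cell receptor complex that were not used for the rule, 5 of 8 rose by small amounts, such as Zap70 by 0.54 ± 0.10 and Lat by 0.41 ± 0.09 on the log2 scale, which did not pass without replicate 3 (adjusted p = 0.0728 and 0.0886) and, for Lat, without replicate 2 (adjusted p = 0.0694). Of these 8 genes 1 rose without replicate 2 and 0 passed by edgeR without replicate 3, where 6 had an unadjusted p under 0.05.

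Of the follicular helper genes, 16 were tested and 9 rose (median log2 fold change 0.55). Tnfsf8, the gene of CD30 ligand, had 859, 1060.1 and 1053 CPM against 484, 290.3 and 307 CPM (log2 fold change 1.52 ± 0.18, adjusted p = 5.46e-06). Its lowest double-positive library exceeded the highest double-negative one. In thinned cells, a Tnfsf8 UMI was present in 49.6%, 52.1% and 47.4% of the double-positive and in 25.3%, 13.6% and 16.3% of the double-negative cells. Slamf6 and Sh2d1a, a receptor and its adaptor in T and B cell contacts, rose by 0.88 ± 0.09 and 0.85 ± 0.10 on the log2 scale, and neither overlapped. Maf, a driver of interleukin 21 and interleukin 10, had 589, 439.7 and 581 CPM against 396, 345 and 279 CPM (log2 fold change 0.70 ± 0.13, adjusted p = 5.24e-04) and did not pass without replicate 3 (adjusted p = 0.0954). Without replicate 2, 6 of the 16 genes rose, and without replicate 3 it was 4 of 16. Matched on depth, 7 of 16 rose, with a median log2 fold change of 0.33, where 351 of 8916 genes were higher over all.

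Il21, the cytokine of follicular helper cells, stood at 32.7, 17.1 and 17.4 CPM against 10.0, 10.5 and 4.94 CPM (log2 fold change 1.40 ± 0.31, adjusted p = 0.00304). It rested on 10, 6 and 10 cells with a UMI, and 1 cell held 9 of the 14 UMIs of replicate 2 and another 12 of the 22 of replicate 3. Without replicate 3 Il21 did not pass (adjusted p = 0.124 without replicate 3), and neither did Bcl6 without replicates 2 or 3 (adjusted p = 0.111 without replicate 2 and 0.323 without replicate 3). Bcl6, the master factor of the lineage, had 128, 132 and 133 CPM against 96.8, 95.7 and 85.3 CPM (log2 fold change 0.53 ± 0.15, adjusted p = 0.0219), and did not pass in cells matched on depth (0.39, adjusted p = 0.247). Cxcr5, the receptor that leads cells to B cell follicles, had 14.7, 19.5 and 12.6 CPM against 15.0, 9.86 and 9.41 CPM and did not pass (log2 fold change 0.53 ± 0.27, adjusted p = 0.199). Without thinning, Cxcr5 UMIs were found in 6.60% of the double-positive cells. Angptl2 rose by 2.23 ± 0.36 on the log2 scale, at 63.8, 9.77 and 32.4 CPM, with replicate 1 the highest in both populations.

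Of the genes of regulatory T cells 11 of 15 were higher, with a median log2 fold change of 0.96. In cells matched on depth 5 of 15 were higher (median 0.67), and there Socs2, a suppressor of cytokine signals, and Il2rb, a chain of the interleukin 2 receptor, did not pass (log2 fold change 0.67, adjusted p = 0.153, and 0.08, adjusted p = 0.855). Ikzf2 had 688, 587 and 483 CPM in double-positive, 310.3, 178 and 147 CPM in double-negative and 1709, 1644 and 1566 CPM in Foxp3-positive cells. The double-positive libraries lay between the other two populations and overlapped neither. The log2 fold change was 1.55 ± 0.13 against the double-negative cells (adjusted p = 6.84e-08) and -1.54 ± 0.12 against the Foxp3-positive cells (adjusted p = 2.09e-07). In thinned cells an Ikzf2 UMI was found in 38.2%, 36.8% and 28.4% of the double-positive cells and in 20.7%, 9.65% and 8.93% of the double-negative cells. In Foxp3-positive cells it was found in 85.7%, 75.5% and 69.3%.

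Lrrc32, which encodes GARP, the anchor of latent TGF-beta, stood at 81.9, 57.4 and 47.4 CPM against 27.5, 18.5 and 22.0 CPM (log2 fold change 1.48 ± 0.24, adjusted p = 1.95e-04). Capg rose by 1.29 ± 0.17, Socs2 by 1.22 ± 0.26 and Ccr8, a chemokine receptor of tissue regulatory cells, by 2.01 ± 0.38 on the log2 scale, of which Ccr8 did not pass without replicate 2 (adjusted p = 0.110) and Socs2 without replicate 3 (adjusted p = 0.324). Il10 had 26.2, 20.8 and 35.5 CPM against 17.5, 20.5 and 10.0 CPM (log2 fold change 0.96 ± 0.31, adjusted p = 0.0410), with replicate 2 nearly level, and did not pass without replicate 1 or 3 (adjusted p = 0.0724 without replicate 1 and 0.699 without replicate 3). Without replicate 2, 6 of 15 regulatory genes rose, and without replicate 3 it was 4 of 14. Over all genes, 375 of 9310 and 207 of 8867 were higher in these fits. Il2ra, the gene of CD25, had 13.1, 33.0 and 21.3 CPM against 28.4, 5.34 and 13.2 CPM and did not pass (log2 fold change 0.84 ± 0.43, adjusted p = 0.212), and in replicate 1 it was lower in the double-positive cells. Without thinning, a UMI of Il2ra was found in 6.80% and of Ikzf2 in 52.4% of the double-positive cells. A cell can hold Foxp3 RNA and yield no UMI of it, and how many of the double-positive cells were of this kind was not tested. When cells with a UMI of Il2ra or Ikzf2 were left out of all CD4 populations without Foxp3, 951 of 8015 genes were called (552 higher, 399 lower). In that fit 5 of 12 tested regulatory genes, 7 of 15 follicular genes and 5 of 16 anergy genes were higher.

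Follicular and regulatory RNA met in some cells. In cells thinned to 2000 UMIs, 10.99% ± 0.506 of the double-positive cells had a UMI of Cxcr5, Bcl6, Il21 or Tox2 but none of Il2ra, Ikzf2, Lrrc32 or Ikzf4 (mean and SD, n = 3), 27.5% ± 5.36 had only the regulatory genes, 11.4% ± 5.76 had both and 50.1% ± 1.43 had neither. In double-negative cells these means were 11.2%, 13.6%, 4.23% and 71.0%. In Foxp3-positive cells they were 3.03%, 67.5%, 16.3% and 13.1%. The share with follicular genes alone was 11.4%, 10.4% and 11.2% in the double-positive cells of replicates 1, 2 and 3 and 15.7%, 9.65% and 8.29% in the double-negative cells, lower in replicate 1 and higher in the other libraries. The share with only regulatory genes lay between the other populations in each library, and the share with both was higher than in the double-negative cells of each library.

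Of the genes of naive and circulating T cells 11 of 14 fell, with a median log2 fold change of -1.35, and 7 of 13 fell in cells matched on depth. Lef1 and Klf2, transcription factors of naive cells, stood at 96.6, 166 and 160.3 and at 214, 258 and 265 CPM, against 366, 826 and 874 and 644, 1074 and 1023 CPM, with log2 fold changes of -2.27 ± 0.15 (adjusted p = 4.34e-09) and -1.88 ± 0.11 (adjusted p = 1.39e-09). Both genes were lower in the double-positive cells of each library, without overlap. Il7r, the interleukin 7 receptor, fell by 1.61 ± 0.10 and S1pr1, the receptor that lets T cells leave tissues, by 1.26 ± 0.08 on the log2 scale. Ccr7 had 796, 1082 and 1219 CPM against 712, 1102 and 1168 CPM and did not pass (log2 fold change 0.07 ± 0.10, adjusted p = 0.720). Tcf7, which encodes TCF1, had a log2 fold change of -0.34 ± 0.14 and did not pass.

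Of 15 genes of homing and residency 5 rose and 2 fell (median log2 fold change 0.41), and without replicate 2 it was 1 and 2. Matched on depth, 3 of 14 rose and 4 fell (median 0.09). Cxcr4, the receptor for CXCL12, had 319, 432 and 385 CPM against 284, 267 and 232 CPM (log2 fold change 0.57 ± 0.11, adjusted p = 0.00144), and Itgb1, an integrin chain, 704, 668 and 727 CPM against 709.9, 314 and 314 CPM (log2 fold change 0.77 ± 0.16, adjusted p = 0.00213). Cxcr4 was higher in each library, while Itgb1 was level in replicate 1, and neither passed without replicate 2 (adjusted p = 0.0587 and 0.0651) or 3 (adjusted p = 0.121 and 0.178). Gpr183, a receptor for oxysterols, had 62.2, 39.1 and 103 CPM against 166, 121 and 154 CPM (log2 fold change -1.04 ± 0.19, adjusted p = 6.82e-04), lower in each library. Of 11 stress and immediate early genes, Dusp1 rose and Ier2 fell, by 0.54 ± 0.13 and 0.50 ± 0.10 on the log2 scale, and neither passed without replicate 2 (adjusted p = 0.0681 and 0.0899) or 3 (adjusted p = 0.181 and 0.0579).

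Of the helper and effector genes, 4 of 21 rose and 6 fell (median log2 fold change -0.08), and without replicate 2 it was 1 and 5. Ifng, the gene of interferon gamma, had 124, 50.1 and 91.6 CPM against 50.1, 43.3 and 33.2 CPM (log2 fold change 1.05 ± 0.27, adjusted p = 0.0111). Its UMIs came from 20, 11 and 29 double-positive cells, and the richest cell of each library held 31.6%, 29.3% and 25.9% of them. Tnfsf11, which encodes RANKL, rose by 0.93 ± 0.20, Stat4 by 0.69 ± 0.13 and Cxcr3 by 0.63 ± 0.12 on the log2 scale. Each of these 4 calls was lost without at least 1 library. Ifng did not pass without replicate 3 (adjusted p = 0.175), Cxcr3 without replicate 2 (adjusted p = 0.0901), nor did Tnfsf11 (adjusted p = 0.0857 without replicate 2 and 0.0938 without replicate 3) and Stat4 (adjusted p = 0.0660 without replicate 2 and 0.105 without replicate 3). Of the genes that fell, Ccl5, Nkg7, Gzmk, Prf1 and Eomes are genes of cytotoxic cells and Il12rb2 encodes a chain of the interleukin 12 receptor. Eomes, a T-box factor, had 8.19, 3.66 and 11.8 CPM against 123, 79.7 and 52.2 CPM (log2 fold change -3.14 ± 0.36, adjusted p = 4.47e-06), and Ccl5, a chemokine, 571, 641 and 415 CPM against 3232, 2999 and 1484 CPM (log2 fold change -2.25 ± 0.32, adjusted p = 5.42e-05). Gzmk and Prf1, a granzyme and perforin, had log2 fold changes of -1.69 ± 0.22 and -2.94 ± 0.50. The chemokine genes Ccl3 and Ccl4 stood at 4.91, 2.44 and 0 and 11.5, 0 and 3.95 CPM against 56.7, 102 and 3.67 and 158, 292 and 16.7 CPM. In the double-negative cells replicate 3 was far below the other libraries for both, and Ccl4 did not pass without replicate 2 (adjusted p = 0.0662) or in cells matched on depth (log2 fold change -2.38 beside -4.66 in all cells, adjusted p = 0.132).

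Among genes at 50 CPM or more that moved the same way in 3 of 3 libraries, some of the largest changes were in genes outside the groups above. Ccn4, a secreted matricellular protein, had 121, 167 and 208 CPM against 77.6, 34.7 and 38.4 CPM (log2 fold change 1.97 ± 0.25, adjusted p = 1.05e-05). Nrn1, which encodes neuritin, had 177, 228 and 312 CPM against 102, 53.0 and 55.2 CPM (log2 fold change 1.96 ± 0.19, adjusted p = 6.93e-07). Gpm6b, a membrane glycoprotein, had 154, 100.1 and 109.8 CPM against 59.2, 27.3 and 32.1 CPM (log2 fold change 1.71 ± 0.15, adjusted p = 9.79e-08). For each of these genes the lowest double-positive library was above the highest double-negative one. Dusp4, a phosphatase of MAP kinases, rose by 1.61 ± 0.17, Rnd3 by 1.64 ± 0.25 and Spock2 by 1.63 ± 0.22 on the log2 scale, of which Rnd3 did not pass without replicate 3 (adjusted p = 0.0763). Ifngr2, a chain of the interferon gamma receptor, fell by 2.33 ± 0.17 and Igfbp4 by 2.65 ± 0.30 on the log2 scale, without overlap.

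Other genes of adenosine handling were followed because CD73 makes adenosine. Of 9 tested, 4 rose. Adora2a, an adenosine receptor, had 108, 143 and 148 CPM against 72.6, 61.6 and 73.7 CPM (log2 fold change 0.99 ± 0.13, adjusted p = 1.26e-05), and Hif1a, a transcription factor that responds to low oxygen, 1362, 1618 and 1615 CPM against 956, 855 and 818 CPM (log2 fold change 0.82 ± 0.09, adjusted p = 2.32e-06). Neither overlapped between the populations. Both were lost in the 2 narrower sets described further on. Among cells with a Pdcd1 UMI the log2 fold changes of Adora2a and Hif1a were 0.37 and 0.22 (adjusted p = 0.278 and 0.509). Without UMIs of the small gene group that holds Lef1, Eomes and Ccl5 they were 0.06 and 0.08 (adjusted p = 0.955 and 0.813). Slc29a1, an adenosine transporter, and Art2b, an ecto-ADP-ribosyltransferase, rose by 1.04 ± 0.21 and 0.96 ± 0.27 on the log2 scale, but the first did not pass without replicate 3 (adjusted p = 0.0518) nor the second without replicate 2 (adjusted p = 0.421). Entpd1, which encodes CD39 and feeds CD73 with AMP, had 29.5, 17.1 and 25.3 CPM against 37.5, 40.9 and 21.7 CPM and did not pass (log2 fold change -0.41 ± 0.28, adjusted p = 0.362). Against the Izumo1r-only and the Nt5e-only cells 0 of 9 tested adenosine genes passed by edgeR, with 1 and 0 at an unadjusted p under 0.05. The mean summed level of the list was 2317 CPM in double-positive and 1557 CPM in double-negative cells. It was 2182 CPM in Izumo1r-only and 2405 CPM in Nt5e-only cells.

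Of 14 interferon-induced genes 8 fell and 1 rose. Without replicate 2, 4 fell, without replicate 3 it was 2, and under the study's limits on cells 3, where 171 of 6131 genes were lower over all. Among cells with a Pdcd1 UMI it was 0 by edgeR, where 1 was lower at an unadjusted p under 0.05. Matched on depth, 5 fell and 3 rose, with a median log2 fold change of -0.25 beside -0.52 in all cells. The summed level of the list was 4702, 6770 and 6314 CPM in double-positive and 4277, 5864 and 5848 CPM in double-negative cells, so the sum was higher in each library while most of the genes that passed were lower. Gbp2 and Gbp4, guanylate-binding proteins, had log2 fold changes of -1.28 ± 0.17 and -1.32 ± 0.17, with 109.7, 198 and 171 CPM of Gbp2 against 147, 539 and 503 CPM. Replicate 1 was lowest in both populations and held the smallest gap. Ifit1 had 19.6, 105 and 107 CPM against 24.2, 214 and 258 CPM (log2 fold change -1.11 ± 0.17, adjusted p = 8.78e-05), again with replicate 1 lowest, and did not pass without replicate 3 (adjusted p = 0.0668). Ifi27l2a, the most abundant gene of the list, went the other way, with 3173, 3979 and 3689 CPM against 2652, 2313 and 2304 CPM (log2 fold change 0.58 ± 0.10, adjusted p = 2.34e-04).

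Of the genes of the cell cycle 4 of 12 were higher. Without replicate 1 it was 1 of 11 and without replicate 2 it was 2 of 12. Without replicate 3 it was 0 by edgeR, where 6 had an unadjusted p under 0.05. Stmn1 had 478, 104 and 49.0 CPM against 331, 63.9 and 29.7 CPM (log2 fold change 0.61 ± 0.17, adjusted p = 0.0156) and Top2a 224, 33.0 and 33.2 CPM against 133, 21.8 and 21.8 CPM (log2 fold change 0.72 ± 0.23, adjusted p = 0.0355). Replicate 1 was several times above the others in both populations. When cells were matched on depth, the log2 fold changes of Stmn1, Top2a and Tyms were -0.14, -0.33 and -0.12, and the list held no gene past the threshold in that comparison. Stmn1 did not pass without replicate 3 (adjusted p = 0.134), and Top2a passed in none of the fits without 1 library (adjusted p = 0.241 without replicate 1, 0.0562 without replicate 2 and 0.0735 without replicate 3).

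Markers of other cell types were read beside these results. Of 12 B cell genes 7 were tested, 2 were higher and 4 lower, and their summed level was 4744, 656 and 1360 CPM in double-positive against 5073, 1381 and 3629 CPM in double-negative cells. Igkc, an immunoglobulin light chain and the most abundant B cell gene there, had 2107, 137 and 122 CPM against 209, 177 and 117 CPM (log2 fold change 1.60 ± 0.51, adjusted p = 0.0375). A single cell of replicate 1 held 1197 of its 1287 Igkc UMIs, 264 of its 376 Ighm UMIs and 29 of its 36 Jchain UMIs. Without replicate 1 the log2 fold change of Igkc was -0.13 (adjusted p = 0.526). H2-Ab1 and Cd74, genes of MHC class II presentation, fell by 1.58 ± 0.33 and 1.20 ± 0.35 on the log2 scale, the latter not past the threshold without replicate 3 (adjusted p = 0.133).

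Of 12 myeloid genes 8 were tested and 0 passed by edgeR, 2 had an unadjusted p under 0.05 and DESeq2 called 0, with summed levels of 429, 286 and 409 CPM against 857, 358 and 592 CPM and Cst3 as the most abundant gene. C1qa, C1qb and C1qc, which define macrophages, had 0 UMIs in all double-positive cells, where a count of 0 allows up to 3, and 66, 48 and 40 UMIs in all double-negative cells. Other fits did call myeloid genes, with 6 of 8 lower in cells matched on depth, 4 of 5 lower when only the compared populations were fitted, and 3 lower and 1 higher of 10 without replicate 2. Without the filter on low counts 8 of 12 were lower and 1 higher, with C1qa, C1qb and C1qc among the lower ones (adjusted p = 3.93e-06, 9.06e-05 and 0.00284). For some genes, Cd74 among them, the adjusted p of that fit lay far below that of the filtered one. The genes of natural killer, NKT and gamma-delta T cells had summed levels of 99.9, 72.1 and 71.9 CPM against 313, 149.6 and 114 CPM, most abundantly Xcl1, and 1 of 7, Tcrg-C4, fell, which was lost without replicate 1 or 2 (adjusted p = 0.101 without replicate 1 and 0.102 without replicate 2). In cells matched on depth all 7 were lower, and without doublets 4 of 7 were. Of the islet endocrine genes 4 were tested and 0 passed by edgeR or DESeq2, 1 had an unadjusted p under 0.05, and the sums were 126, 44.0 and 53.7 CPM against 147, 53.6 and 47.8 CPM. Without cells that carried a UMI of a B cell or myeloid marker, 1546 genes were called.

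**Figure D3:**
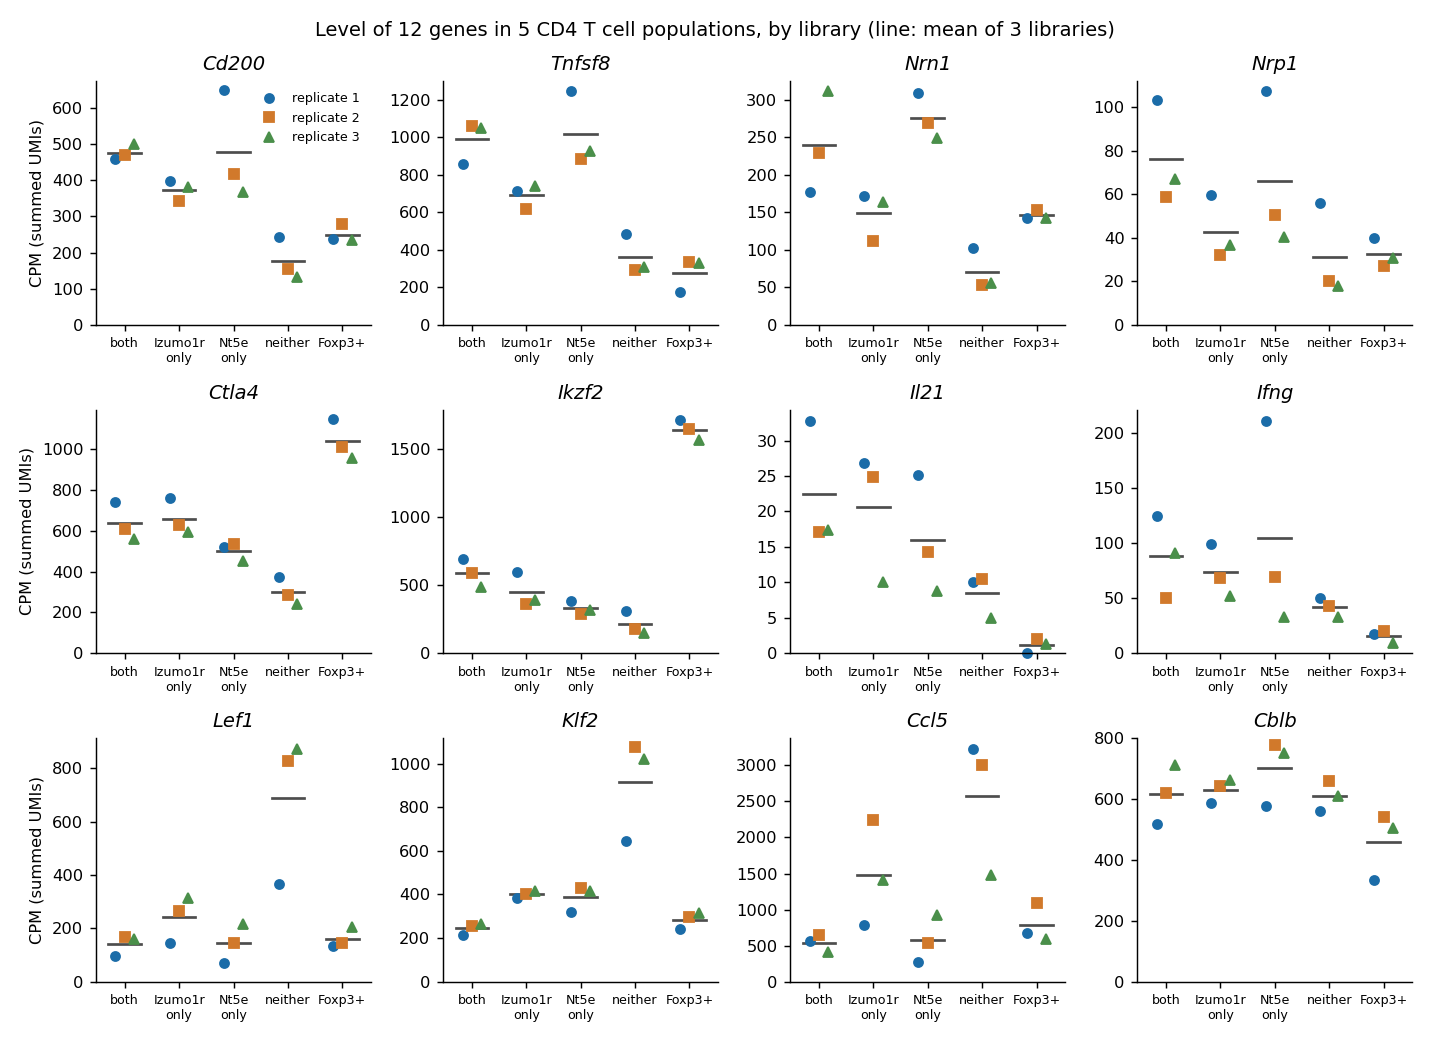
Level (y axis, CPM of summed UMIs, from 0) of selected genes in the 5 CD4 T cell populations (x axis), 1 point per library and a line at the mean of 3 libraries. Cd200, Tnfsf8 and Nrn1 are higher and Lef1 and Klf2 lower in cells with both transcripts than in cells with neither in each library, Ikzf2 lies between the double-negative and Foxp3-positive cells, and Cblb overlaps.

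The second question was how far the double-positive cells resemble Foxp3-positive CD4 T cells, which also carry Izumo1r and Nt5e (levels above). Of the regulatory genes 10 of 15 were lower in the double-positive cells. Of the cytokine genes, Il21 and Ifng were higher and Il10 was lower. Of 9275 genes 676 passed (7.29%), 287 higher (3.09%) and 389 lower (4.19%). The comparison shares the double-positive sums with the first one, so values are set side by side. Without replicate 2 it called 342 genes and without replicate 3 it called 223. Markers of other cell types moved with this comparison. Of 7 tested B cell genes 4 were lower in the double-positive cells (median log2 fold change -1.94), with Cd74 at 838, 150.2 and 486 CPM against 1260, 1719 and 1382 CPM (log2 fold change -1.94 ± 0.37, adjusted p = 0.00174), H2-Ab1 at -1.98 ± 0.34 and summed levels of 4744, 656 and 1360 against 3532, 4314 and 3820 CPM. In the double-positive sum of replicate 1 a single cell with many immunoglobulin UMIs, described above, adds to this level. Of 8 myeloid genes 3 were lower, 7 had an unadjusted p under 0.05 (median log2 fold change -1.74), and the summed levels were 429, 286 and 409 against 818, 1299 and 821 CPM. The 3 genes were Lyz2, the gene of lysozyme, at -3.78 ± 1.01, Fcer1g at -1.51 ± 0.43 and Cst3 at -1.23 ± 0.20 on the log2 scale. Without doublets Cd74 and H2-Ab1 did not pass (adjusted p = 0.235 and 0.231). The part of these markers in the values that follow was not tested. Of the interferon-induced genes 8 of 14 were lower and of the core genes of the T cell receptor complex 6 of 8 higher.

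Of 15 regulatory genes 10 were lower and the median log2 fold change was -1.52. Itgae, the gene of CD103, had 14.7, 9.77 and 7.90 CPM in double-positive and 112, 106 and 75.8 CPM in Foxp3-positive cells (log2 fold change -3.26 ± 0.33, adjusted p = 2.37e-06), Lrrc32 81.9, 57.4 and 47.4 CPM against 144, 237 and 256 CPM (log2 fold change -1.91 ± 0.20, adjusted p = 3.63e-06) and Ikzf4, which encodes Eos, 40.9, 61.1 and 56.9 CPM against 145, 202 and 178 CPM (log2 fold change -1.74 ± 0.17, adjusted p = 2.37e-06). None of these overlapped. Ctla4 stood lower by 0.74 ± 0.08 on the log2 scale than in Foxp3-positive cells, and Tnfrsf9 by 1.64 ± 0.21, although both were higher than in double-negative cells. Il10 had 26.2, 20.8 and 35.5 CPM against 70.3, 139 and 76.7 CPM (log2 fold change -1.74 ± 0.27, adjusted p = 2.67e-04) and was lower without each library in turn. Of the helper and effector genes 3 of 21 were higher (Ifng, Tnfsf11 and Stat4) and 4 lower (Gzmb, Nkg7, Id2 and Ccr6). Gzmb, a granzyme, had 16.4, 25.6 and 7.90 CPM against 144, 42.0 and 97.3 CPM (log2 fold change -2.52 ± 0.38, adjusted p = 1.88e-04).

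On the higher side, Il21 had 32.7, 17.1 and 17.4 CPM against 0, 2.03 and 1.34 CPM (log2 fold change 3.77 ± 0.48, adjusted p = 3.35e-05), Ifng 124, 50.1 and 91.6 CPM against 17.6, 20.3 and 8.97 CPM (log2 fold change 2.49 ± 0.36, adjusted p = 1.21e-04) and Tnfsf11 174, 143 and 115 CPM against 25.6, 35.9 and 25.6 CPM (log2 fold change 2.13 ± 0.25, adjusted p = 1.17e-05). The Foxp3-positive libraries lay below each double-positive library for all 3 genes. Tnfsf8 was higher by 1.75 ± 0.18, Stat4 by 0.91 ± 0.14 and Nrp1 by 1.13 ± 0.20 on the log2 scale. Fbn2, a fibrillin gene, had 42.6, 58.6 and 52.9 CPM against 3.20, 2.71 and 5.83 CPM (log2 fold change 3.57 ± 0.32, adjusted p = 6.83e-07) and Rnd3 44.2, 65.9 and 105 CPM against 14.4, 8.80 and 12.6 CPM (log2 fold change 2.68 ± 0.32, adjusted p = 1.61e-05). Cblb was higher by 0.40 ± 0.09 and Nfatc1 by 1.01 ± 0.12, among 6 of 16 anergy genes that were higher, and Cblb did not pass without replicate 3 (adjusted p = 0.236). Several naive genes that were low against the double-negative cells were not past the threshold here, such as Klf2 with 214, 258 and 265 CPM against 243, 298 and 313 CPM (log2 fold change -0.23 ± 0.11, adjusted p = 0.279), while Tcf7 was higher by 0.94 ± 0.16 on the log2 scale. Of the homing genes 8 of 15 were lower and 2 higher, among the lower ones Ccr2 at -1.53 and Ccr4 at -1.70. Against only those Foxp3-positive cells that carried UMIs of both Izumo1r and Nt5e, 504 genes were called.

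**Figure D4:**
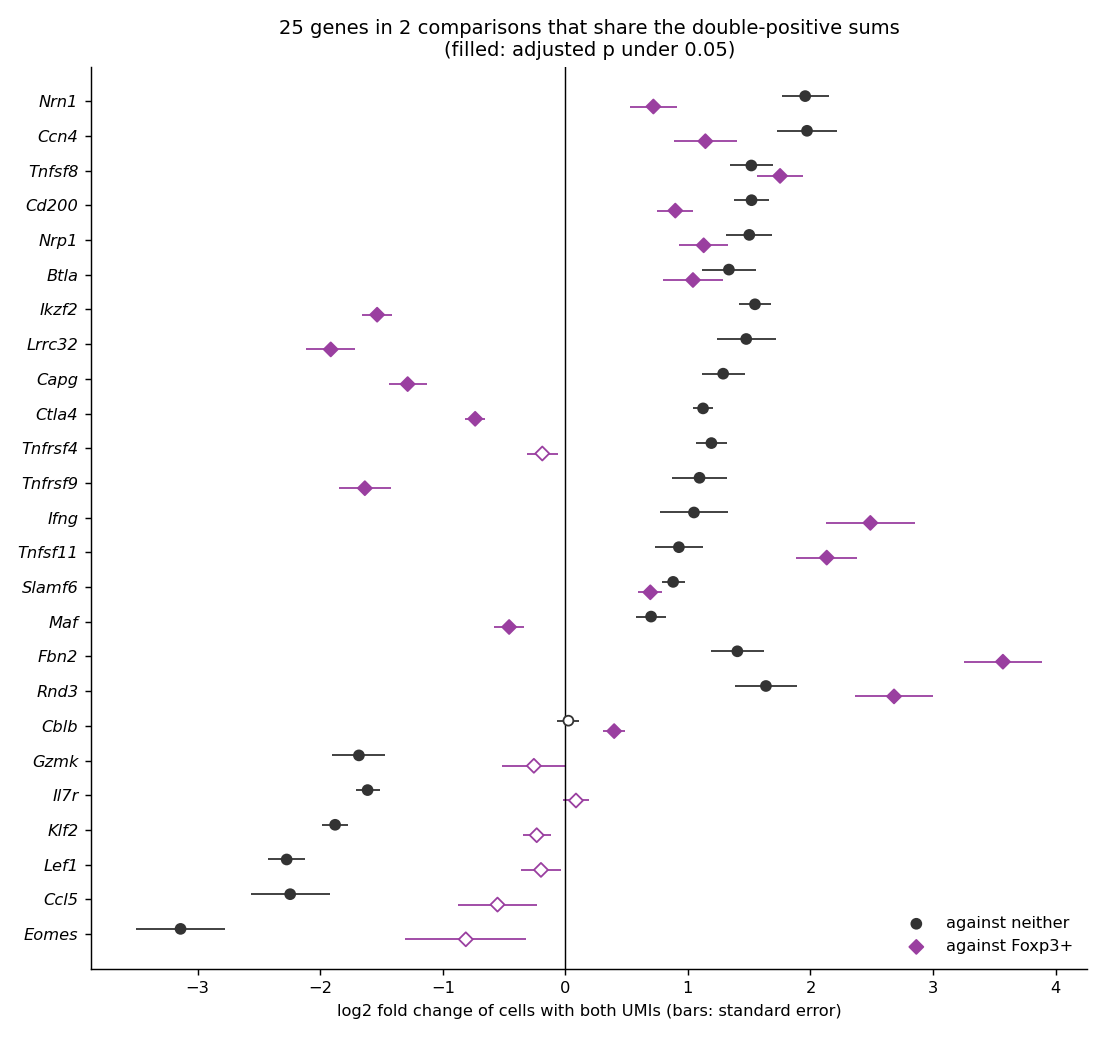
Log2 fold change (x axis, bars are standard errors) of selected genes (y axis) in double-positive cells against double-negative cells (black circles) and against Foxp3-positive cells (purple diamonds), filled where the adjusted p is under 0.05. Ikzf2, Lrrc32, Capg, Ctla4, Tnfrsf9 and Maf lie to the right of 0 in one comparison and to the left in the other, and Ifng, Tnfsf11, Fbn2 and Rnd3 lie to the right of 0 in both.

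The third question was whether cells with both transcripts differ from those with one of them. Few genes passed. Against the Izumo1r-only cells 26 genes passed (0.28%), of them 7 higher (0.0755%) and 19 lower (0.205%), and against the Nt5e-only cells 9 passed (0.097%), of them 5 higher (0.0539%) and 4 lower (0.0431%). A gene that is present can yield no UMI at these depths, so both neighbours may hold cells that express the other gene. Their share was not tested. The first of these counts was 63 without replicate 1, 0 by edgeR without replicate 2 (498 genes with an unadjusted p under 0.05) and 0 without replicate 3 (426), and the second was 15, 1 and 1. Of the 9 genes called against the Nt5e-only cells, 7 were among the 15 without replicate 1, 1 (Il7r) was called without replicate 2 and none was called without replicate 3. DESeq2, run on all 3 libraries, called 29 and 31, but it gave no adjusted p for 2338 and 6294 of the 9275 genes, so these counts rest on fewer genes than those of edgeR.

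Against the Izumo1r-only cells, Cd9, a tetraspanin, had 246, 315 and 347 CPM against 149, 185 and 213 CPM (log2 fold change 0.73 ± 0.11, adjusted p = 0.00795) and Ptch1, the hedgehog receptor, 151, 164 and 199 CPM against 106, 99.9 and 87.5 CPM (log2 fold change 0.85 ± 0.15, adjusted p = 0.0143). Both were higher in the double-positive cells of each library. Rnd3 stood higher by 1.52 ± 0.27 on the log2 scale (adjusted p = 0.0139), with Pou2f2 and Creb3l2 at 0.83 ± 0.13 and 1.11 ± 0.23. In replicate 1 Creb3l2 was lower in the double-positive than in the Izumo1r-only cells (75.3 against 80.6 CPM), so that its rise came from replicates 2 and 3. The remaining 2 higher genes, Gm2663 and 1810009J06Rik, belong to the trypsinogen family of the exocrine pancreas, whose close copies can share reads. They stood at 13.1, 25.6 and 48.2 and 47.5, 3.66 and 4.74 CPM, while the Izumo1r-only cells had 0, 1.21 and 0.911 CPM of the first and no UMI of the second and the Nt5e-only cells had 139.8, 81.5 and 25.4 and 21.5, 0 and 14.3 CPM. The libraries that were high differed between these genes and populations. Of the naive and circulating genes 5 of 14 were lower, among them Klf2 by 0.72 ± 0.11 and Lef1 by 0.79 ± 0.16 on the log2 scale. Eomes and Gzmk were lower by 1.97 ± 0.42 and 1.45 ± 0.23. The genes Cd9, Ptch1, Pou2f2, Creb3l2, Gm2663 and 1810009J06Rik were picked for the text after their values were seen.

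Against the Nt5e-only cells, Ikzf2 had 688, 587 and 483 CPM against 380.0, 289.5 and 316 CPM (log2 fold change 0.84 ± 0.14, adjusted p = 0.0105), without overlap. Il7r was lower, with 224, 391 and 315 CPM against 466, 601 and 622 CPM (log2 fold change -0.83 ± 0.10, adjusted p = 0.00108), and so were S1pr1 by 0.55 ± 0.09 and Klf2 by 0.63 ± 0.12 on the log2 scale. Rgs10 and Ptprcap, which were also picked after their values were seen, were higher by 0.59 ± 0.11 and 0.70 ± 0.11. The Nt5e-only cells had mean levels of 1019 CPM of Tnfsf8, 275 CPM of Nrn1 and 201 CPM of Ccn4, where the double-positive cells had 991, 239 and 165 CPM and the double-negative cells 360.4, 70.0 and 50.2 CPM. For Ikzf2 the Izumo1r-only cells came closer, at 448 CPM beside 586 CPM in double-positive and 329 CPM in Nt5e-only cells.

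The double-negative cells had RNA of naive genes, such as Lef1 and Klf2, and of cytotoxic genes, such as Ccl5 and Eomes, beside each other. The first comparison was therefore repeated inside narrower sets of cells, chosen after seeing the data. Among cells with a Pdcd1 UMI, with 51, 70 and 138 double-positive and 113, 329 and 420 double-negative cells in the 3 libraries, 152 genes were called (86 higher, 66 lower). Among cells without a UMI of a small group of naive and cytotoxic genes that holds Lef1, Eomes and Ccl5, with 77, 72 and 111 against 154, 197 and 326 cells, 111 were called (55 higher, 56 lower). Of the 96 named genes called in the full comparison, 19 of 95 with a value were called in the first set and 14 of 88 in the second, and 14 and 9 had the opposite sign there. These sets hold fewer cells, and how much of the drop comes from that was not tested. In cells matched on depth 72 of 95 were called. Beside the genes whose loss there is given above, Art2b, Cd82, Ier2, Ikzf1, Irf4, Itch and Itgb1 did not pass, and the log2 fold changes of S1pr1 and Lef1 were -0.66 and -1.58.

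What was called differed by gene. Nrn1 was higher by 1.17 on the log2 scale among cells with a Pdcd1 UMI (adjusted p = 2.19e-04) and by 0.87 in the other set (adjusted p = 0.0563). Ikzf2 was higher in both, by 0.69 (adjusted p = 0.00338) and 0.75 (adjusted p = 0.0239). Tnfsf8 gave 1.22 (adjusted p = 2.18e-04) and 0.21 (adjusted p = 0.602), and Cd200 0.34 (adjusted p = 0.176) and 0.98 (adjusted p = 3.02e-04). Klf2 was lower in both, with -0.78 (adjusted p = 0.00538) and -1.55 (adjusted p = 1.99e-05). Ctla4, Icos and Nrp1 stayed above 0 without passing in either set, and Maf had values of -0.22 and 0.14, Nfatc1 of -0.12 and -0.18 and Cxcr3 of -0.03 and -0.17, where none passed. Among cells with a Pdcd1 UMI, 7 of 19 helper and effector genes were lower, such as Gzmk at -2.65 and Eomes at -3.89, while Lef1, at -0.05, was not past the threshold. Of the follicular genes 2 of 16 were higher among cells with a Pdcd1 UMI and 0 of 15 by edgeR in the second set (2 at an unadjusted p under 0.05). Of the regulatory genes 2 of 15 and 1 of 14 were higher, and of the anergy genes 0 of 16 by edgeR (3 at an unadjusted p under 0.05) and 1 of 15. Of the naive and circulating genes 1 of 14 and 3 of 10 were lower, and 1, Ccr7, was higher in both sets. Helper and effector genes had 1 of 16 lower in the second set, which was chosen with members of that list and of the naive list.

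**Figure D5:**
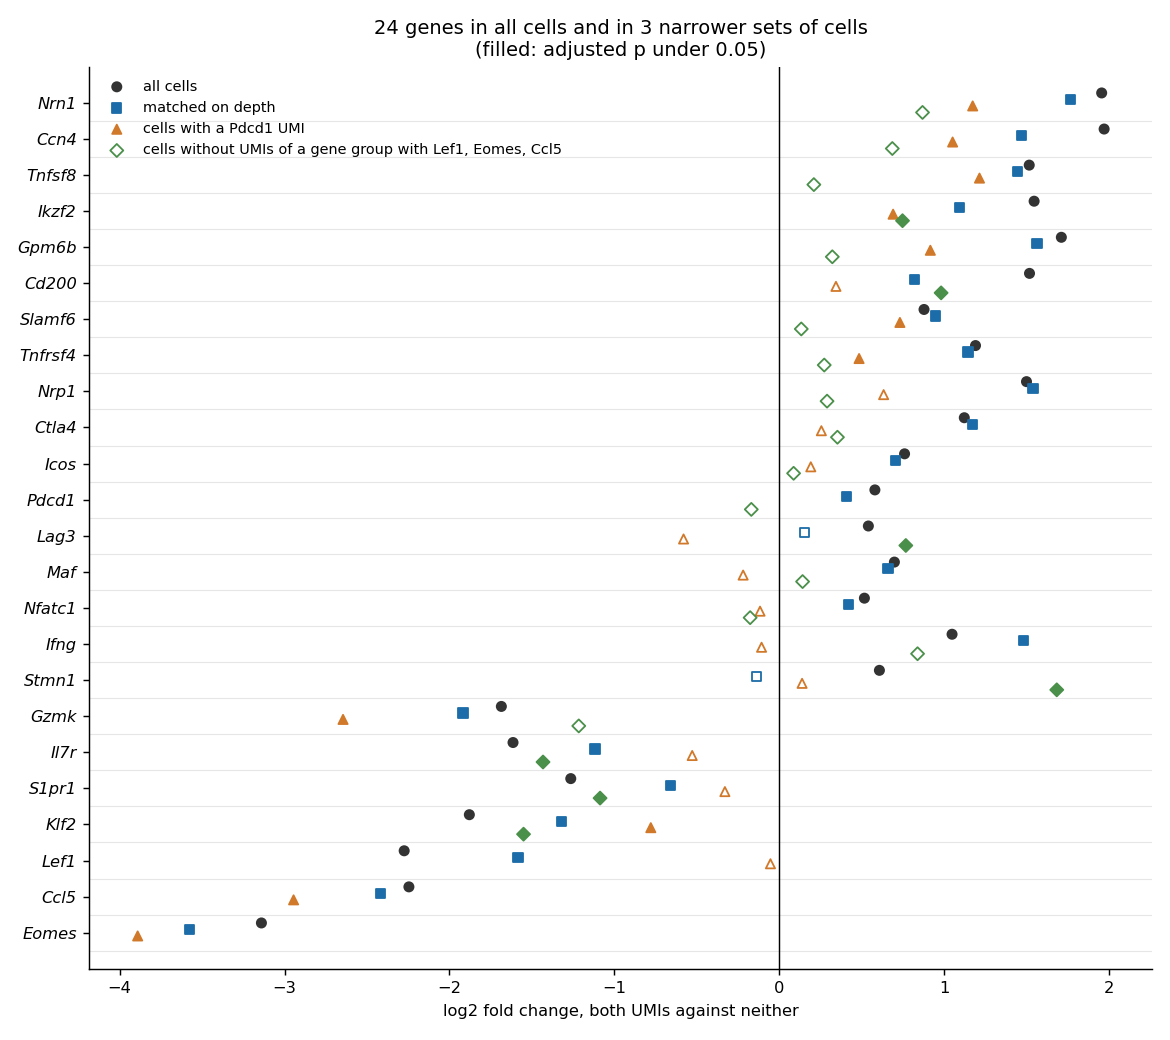
Log2 fold change of double-positive against double-negative cells (x axis) for selected genes (y axis) in all cells, in cells matched on depth, in cells with a Pdcd1 UMI and in cells without UMIs of the small gene group that holds Lef1, Eomes and Ccl5, filled where the adjusted p is under 0.05. Genes that chose a set have no point for it. Matched on depth, Ikzf2 is at 1.09 and Klf2 at -1.32, beside 1.55 and -1.88 in all cells, and Icos is at 0.71 beside 0.76. In the 2 narrower sets Ikzf2 and Klf2 are filled throughout while Icos, Maf and Nfatc1 lie near 0.

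A set of 20 genes passed with the same direction in all cells, in cells matched on depth, among cells with a Pdcd1 UMI, among cells without UMIs of the small gene group that holds Lef1, Eomes and Ccl5, and among cells without UMIs of Il2ra and Ikzf2. Of these, 13 were higher and 7 lower. The 5 comparisons share cells, and the genes outside the earlier lists were picked after their values were seen. Ramp1, a partner of the receptor for calcitonin gene-related peptide, had 273, 173 and 148 CPM in double-positive and 123, 63.3 and 56.8 CPM in double-negative cells (log2 fold change 1.34 ± 0.11, adjusted p = 9.51e-08). Sla, an adaptor that limits T cell receptor signals, had 483, 562 and 557 CPM against 279, 226 and 203 CPM (log2 fold change 1.23 ± 0.10, adjusted p = 8.69e-08). Tpmt, a methyltransferase, had 27.8, 36.6 and 41.9 CPM against 13.3, 9.24 and 10.0 CPM (log2 fold change 1.84 ± 0.21, adjusted p = 4.47e-06). None of these overlapped between the populations, and all 3 passed without each library in turn. The Izumo1r-only, Nt5e-only and Foxp3-positive cells had mean levels of 164, 166 and 182 CPM of Ramp1, beside 198 CPM in double-positive cells. For Sla these were 485, 431 and 481 CPM beside 534 CPM. Against the Foxp3-positive cells, Ramp1 and Sla did not pass in edgeR (adjusted p = 0.684 and 0.609), while Tpmt was higher (adjusted p = 0.00894).

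The others on the higher side were Timp2, Gstp3, Prdx2, Rilpl2, Atl3, Sdf4, Pold4, Fam168a, Rac2 and Ighm, of which Ighm drew most of its replicate 1 UMIs from the single cell described above. On the lower side were Klf2, Txk, Grap2, Gramd3, Pde2a, Klrd1 and Dusp5. Txk, a kinase of the Tec family, had 81.9, 91.6 and 92.4 CPM against 233, 373 and 403 CPM (log2 fold change -1.95 ± 0.14, adjusted p = 1.40e-08), and Grap2, which encodes the adaptor GADS, 60.6, 123 and 122 CPM against 258, 327 and 303 CPM (log2 fold change -1.52 ± 0.12, adjusted p = 3.33e-08). Both were lower in each library, without overlap, and passed without each library in turn. Against the Foxp3-positive cells Txk was lower in edgeR (adjusted p = 0.00759) and Grap2 did not pass (adjusted p = 0.676).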

How the data were processed

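Live CD45+ islet cells of 3 libraries were profiled by droplet 3' RNA sequencing (10x chemistry v3 per the labels). The authors aligned reads to mm10 and counted UMIs per gene and cell with Cell Ranger 6.0.1, and the deposited values are raw counts of 32285 genes. Each library is 1 replicate. Cells with at least 1000 UMIs and under 10% mitochondrial UMIs were gated on raw counts, and UMIs of 5 CD4 populations were summed per library. Mitochondrial and ribosomal genes, Malat1 and the 10 gate genes were not tested. Sums were tested in edgeR 4.0.16 (R 4.3.3; low counts filtered, TMM factors, quasi-likelihood test, library as block, Benjamini-Hochberg over 9275 genes, adjusted p threshold 0.05). Populations of 1 library come from the same pooled mice, and deviations from the population means correlated with a mean of 0.42 within libraries and -0.19 between them. On simulated counts with 200 changed genes of 8989 at a log2 fold change of 1, 93.5% were found against double-negative, 90.5% against Foxp3-positive, 93.5% against Izumo1r-only and 86.5% against Nt5e-only cells, with 8, 7, 5 and 11 false calls. The changed genes were drawn only from those above a minimum level. The simulated libraries differed in total UMIs but had no other library effect, unlike the data. How far these rates hold for the real comparisons was not tested. Shares of cells with a UMI of a gene were compared between populations after thinning each cell to 2000 UMIs, and shares not called thinned use all UMIs. Doublets were scored with Scrublet (scanpy 1.11.5) and kept. DESeq2 1.42.0, other factors and filters, and other sets of cells were alternatives.

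The double-positive cells, the 18 gene lists and the rule for named genes were chosen with earlier results of these data known. The rule took the gate genes, up to 5 called genes of each list in each direction, up to 4 abundant members of the anergy, follicular, regulatory and inhibitory lists, and the 8 (against double-negative) or 5 (against Foxp3-positive) largest changes in each direction at 50 CPM or more that held in 3 of 3 libraries. Members of the lists outside it (Il21, Tox2, Rnf128, Il10, Cxcr5, Il2ra, Egr1, Egr2, Egr3, Nr4a1, Ccr7, Tcf7, Ccr2, Ccr4, Entpd1, Nkg7, Jchain, Cst3, Id2, Ccr6, Lyz2, Fcer1g, Xcl1, C1qa, C1qb and C1qc) were named after their values were seen. Within a summed level, near-identical genes can share reads. The study kept cells of 200 to 5000 genes and fewer than 6000 UMIs, with mitochondrial genes below 5% and ribosomal genes above 5%. These limits were used as an alternative only, since 46.4%, 75.0% and 71.8% of the double-positive cells had 6000 UMIs or more. Some members of the lists are not reported here.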

Additional observations from a re-analysis of the deposited data

How the results depend on the processing

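The number of genes called against the double-negative cells (1469) was 1190 with DESeq2, 457 under the study's own limits on cells, 719 in cells matched on depth, 951 without Il2ra or Ikzf2 UMIs and 798 in cells with 2 or more UMIs of both genes. In the sets chosen after seeing the data it was 152 (cells with a Pdcd1 UMI) and 111 (cells without UMIs of the small gene group that holds Lef1, Eomes and Ccl5). Leaving out each library gave 403 to 1606. Without the library as a replicate block it was 313, beside 135, 0 and 0 against the Foxp3-positive, Izumo1r-only and Nt5e-only cells, the last 2 by edgeR with 294 and 419 genes at an unadjusted p under 0.05. Against the Foxp3-positive cells (676) the study's limits gave 199 and leaving out each library 223 to 681. Against the Izumo1r-only cells (26) it was 132 without the filter, 86 with only the compared populations, 0 to 63 without each library, 0 under the study's limits (366 at an unadjusted p under 0.05), 15 matched on depth and 17 without Il2ra or Ikzf2 UMIs. Against the Nt5e-only cells (9) it was 31 with DESeq2 (no adjusted p for 6294 genes), 109 without the filter, 28 with only the compared populations, 1 to 15 without each library, 15 without B cell or myeloid marker UMIs, 2 matched on depth and 3 without Il2ra or Ikzf2 UMIs. List members called (99) came to 29 without the replicate block, 47 to 105 without each library, 64 under the study's limits and 23 and 14 in the 2 sets chosen later. The mean share of double-positive cells (9.72%) was 3.01% when cells were thinned first, 5.74% under the study's limits and 9.55% without doublets.

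Signs turned in these cases, with log2 fold changes against the double-negative cells. Among cells with a Pdcd1 UMI they were -0.15 for Bcl6, -0.0136 for Cd44, -0.0335 for Cxcr3, -0.11 for Ifng, -0.23 for Igkc, -0.42 for Il2rb, -0.58 for Lag3, -0.22 for Maf, -0.12 for Nfatc1, -0.12 for Pclaf, -0.33 for Rgs1, -0.19 for Top2a, -0.0313 for Trbc1 and -0.0275 for Tyms. Without UMIs of the small gene group that holds Lef1, Eomes and Ccl5 they were -0.44 for Art2b, -0.0183 for Cd82, -0.17 for Cxcr3, -0.0535 for Cxcr4, -0.13 for Irf4, -0.0216 for Itgb1, -0.18 for Nfatc1, -0.17 for Pdcd1 and -0.13 for Tnfsf11. Matched on depth they were -0.00851 for Pclaf, -0.14 for Stmn1, -0.33 for Top2a and -0.12 for Tyms. Under the study's limits they were -0.14 for Igkc, -0.19 for Ikzf4 and -0.97 for Stmn1, with -0.90 for Igkc against the Foxp3-positive cells. Igkc was also between -0.13 (without replicate 1) and 2.25 when each library was left out, -0.23 without doublets, -0.26 without B cell or myeloid marker UMIs and -0.50 in cells with 2 or more UMIs of both genes. The causes were not tested, except that Igkc rests on the single cell named above. The design has 1 condition and 3 pools, the rule is an RNA gate on sparse counts, and depth limits what is said of genes under about 10 CPM.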
